A study of Saccharomyces cerevisiae with 9 samples.

Results

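The transcripts described here encode the yeast disaggregase Hsp104, the small heat shock proteins Hsp26, Hsp42 and Hsp12, the membrane protein Hsp30, the chaperone Hsp31, the sorting factor Btn2, and the transcription factors Hsf1, Msn2 and Msn4. The genes were chosen by name, and each was found on the array through its gene symbol or systematic name, which gave 10 probes of 6256. RNA came from Hyb-8, a hybrid selected from the library of mated spores, and from its parental strains Sun224T-K and Sun049T-Z, with 3 arrays per strain on 1-colour Agilent arrays. Both parental strains derive from industrial diploid Saccharomyces cerevisiae, the thermotolerant Sun049 and the acid-tolerant Sun224, and both carried a plasmid with XYL1 and XYL2 of Scheffersomyces stipitis, the yeast XKS1 and a clonNAT marker. In Sun049T-Z 1 copy of HO was replaced by a zeocin marker, and in Sun224T-K by a KanMX marker. Hyb-8 was isolated after UV treatment, sporulation and mating of both, under selection with the drugs of both markers, so it is 1 strain among many possible recombinants. All cells were precultured at 30°C and then moved to medium with 50 g/L xylose, acidified with acetic (20 mM) and formic (15 mM) acid and kept at 38°C, and RNA was taken after 3 h of fermentation. Every strain thus met heat and acid, and no unstressed culture was analysed here, so the values compare strains under stress and not stress with its absence. Whether a strain's 3 arrays go back to separate fermentations is not given in the sources used here, so the p-values measure only the spread between these arrays. Because RNA was taken from whole cultures, fewer expressing cells and less RNA per cell cannot be told apart.

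Yeast answers heat with chaperones that keep damaged proteins soluble, gather them at defined sites and pull them out of aggregates. Hsp42 and Hsp26 bind unfolding proteins, Btn2 helps to collect them, and Hsp104, an ATPase, extracts them again together with Hsp70. Hsf1 drives many chaperone genes through heat shock elements, whereas the paralogs Msn2 and Msn4 bind stress response elements and are held back by protein kinase A. HSP104, HSP26, HSP42 and BTN2 are known targets of Hsf1, most of them also of Msn2 and Msn4, and HSP12 is a classical target of Msn2 and Msn4. HSP30 is known to be induced by heat, ethanol and weak organic acids.

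A level is given as log2 of the background-subtracted intensity, averaged over the spots of a probe, relative to the 75th percentile of its array. It can be compared between arrays but not between probes. The 75th percentile lay at intensities between 1044 and 4830, and 90.2% to 96.5% of spots per array were well above background. All 10 probes were well above background on all 9 arrays, and 0 of their 630 spots were saturated, although 344 were read from the low-gain scan. Sun049T-Z replicate 1 stood apart: it had the lowest 75th percentile, and the SD between the spots of a probe had a median of 0.324 there and at most 0.0667 elsewhere. On that array 21.1% of the bright probes (median intensity over 1000) had a spot more than 10 times dimmer than the probe's median, against 0.135% or less on each other array. The labels call Hyb-8 and Sun224T-K PHO13-deleted, but the level of PHO13, a phosphatase gene, was -1.71, -1.74 and -1.72 on the Hyb-8 arrays and -1.74, -1.20 and -1.73 on the Sun224T-K arrays, against -3.71, -3.74 and -3.90 on the Sun049T-Z arrays. PHO13 was therefore lowest in the strain labelled as control, and a strain name below stands for the arrays that bear this label.

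Of the chaperone and sorting factor transcripts, HSP42, HSP31 and BTN2 were lower in Hyb-8 than in thermotolerant Sun049T-Z. HSP30, which encodes a membrane protein, was higher in Hyb-8, and only MSN4 passed the test against acid-tolerant Sun224T-K. Calls required both a 2-fold difference and an adjusted p under 0.05 (limma, Benjamini-Hochberg over 5947 probes). In Hyb-8 over Sun049T-Z, 1 of the 10 genes was called higher, HSP30, where 9.37% of all probes tested were. HSP42, HSP31 and BTN2, 3 of 10, were called lower, where 9.1% of all probes were. By the adjusted p alone 6 of the 10 passed, 1 higher and 5 lower, beside 56% of all probes, which is close to the background. The median log2 fold change was -0.63 over the 10 genes and 0.03 over all probes tested. Between Hyb-8 and Sun224T-K none of the 10 was called higher or lower, where 0.858% and 0.387% of all probes were, and 1, MSN4, passed the adjusted p alone, beside 5.48%. The parental strains were set against each other with the same Sun049T-Z arrays: in Sun224T-K over Sun049T-Z, 1 gene was called higher, beside 9.42% of all probes, and HSP104, HSP42, HSP31 and BTN2, 4 of 10, were called lower, beside 10.7%. There 7 of the 10 passed the adjusted p alone, beside 58.2%. Set against both parents at once, none of the 10 was called higher or lower in Hyb-8, where 0.336% and 0.219% of all probes were.

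**Figure D1:**
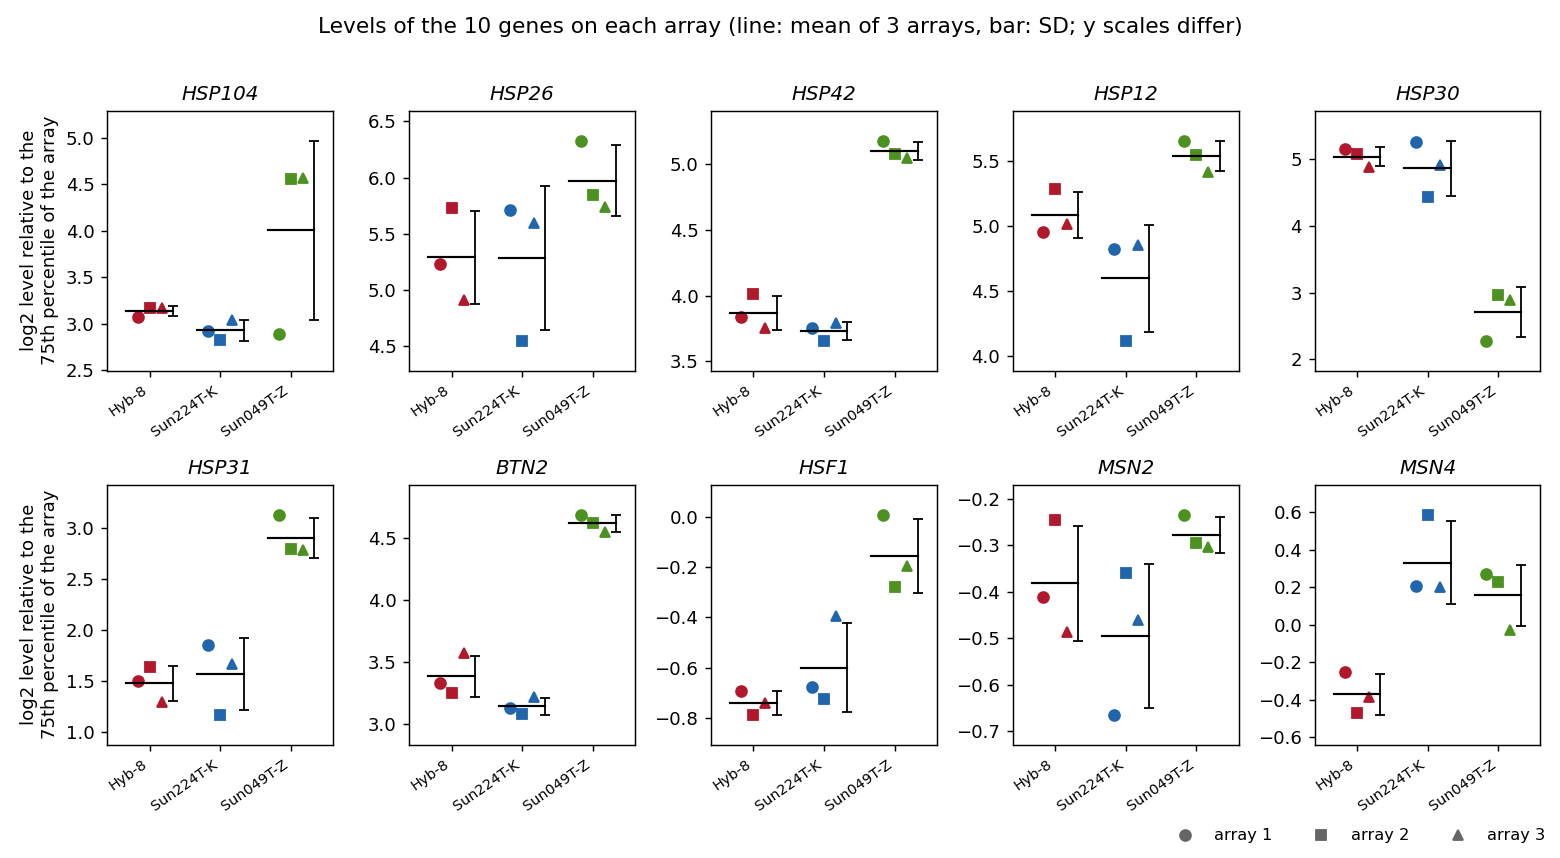
Log2 level relative to the 75th percentile of the array (y axis, a scale of its own for each gene) of the 10 genes on the 3 arrays of Hyb-8, Sun224T-K and Sun049T-Z, with the mean as a line and the SD as a bar. HSP30 lies between 2.28 and 2.96 in Sun049T-Z, under all arrays of the other strains, and MSN4 in Hyb-8 between -0.47 and -0.25, under all parental arrays.

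HSP104 (YLL026W, chromosome XII) had levels close together in Hyb-8 and Sun224T-K, and 1 array lowered its mean in Sun049T-Z. The level was 3.08, 3.17 and 3.17 in Hyb-8 and 2.92, 2.82 and 3.04 in Sun224T-K, against 2.89, 4.55 and 4.56 in Sun049T-Z. Sun049T-Z replicates 2 and 3 stood well above every other array and Sun049T-Z replicate 1 among the lowest, so that the Sun049T-Z range overlapped that of both other strains, whereas Hyb-8 lay just above Sun224T-K on every array. The log2 fold change in Hyb-8 over Sun049T-Z was -0.86 (standard error 0.38, adjusted p = 0.0785 from limma) and did not pass the test. Sun224T-K was called lower than Sun049T-Z, by a log2 fold change of -1.07 (adjusted p = 0.0344 from limma), but this call was lost on leaving out any one array except Sun049T-Z replicate 1, with adjusted p between 0.0509 and 0.117.

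The low HSP104 value of Sun049T-Z replicate 1 came from 2 of its 7 spots. These had intensities of 157 and 241, where the other 5 spots lay between 21836 and 48421, and the scanner software marked none of them as an outlier. The spot SD was 3.65 there and at most 0.113 on the other arrays. With the median of the spots in place of the mean, the level was 3.07, 3.18 and 3.17 in Hyb-8 and 2.94, 2.86 and 3.04 in Sun224T-K, against 4.75, 4.57 and 4.56 in Sun049T-Z, and Sun049T-Z no longer overlapped the others. HSP104 was then called 2.79-fold lower in Hyb-8 (log2 fold change -1.48, adjusted p = 1.56e-06 from limma) and 3.20-fold lower in Sun224T-K (-1.68, adjusted p = 6.78e-07) than in Sun049T-Z. Without Sun049T-Z replicate 1 the log2 fold changes were -1.42 in Hyb-8 and -1.63 in Sun224T-K (adjusted p = 1.2e-05 and 5.68e-06 from limma). The arrays lay on 4 slides, and within slides 2 and 3, which held all strains, the log2 difference of Hyb-8 from Sun049T-Z was -1.48 and -1.39. HSP104 between Hyb-8 and Sun224T-K differed by a log2 fold change of 0.21, with a 95% interval of -0.64 to 1.06 (adjusted p = 0.79 from limma). The width of this interval depended on Sun049T-Z replicate 1, an array of neither strain compared. The standard error of 0.38 fell to 0.10 with the median of the spots, and to 0.09 without that array. The log2 fold changes were then 0.20 and 0.21, and neither passed (limma, adjusted p = 0.249 and 0.181).

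**Figure D2:**
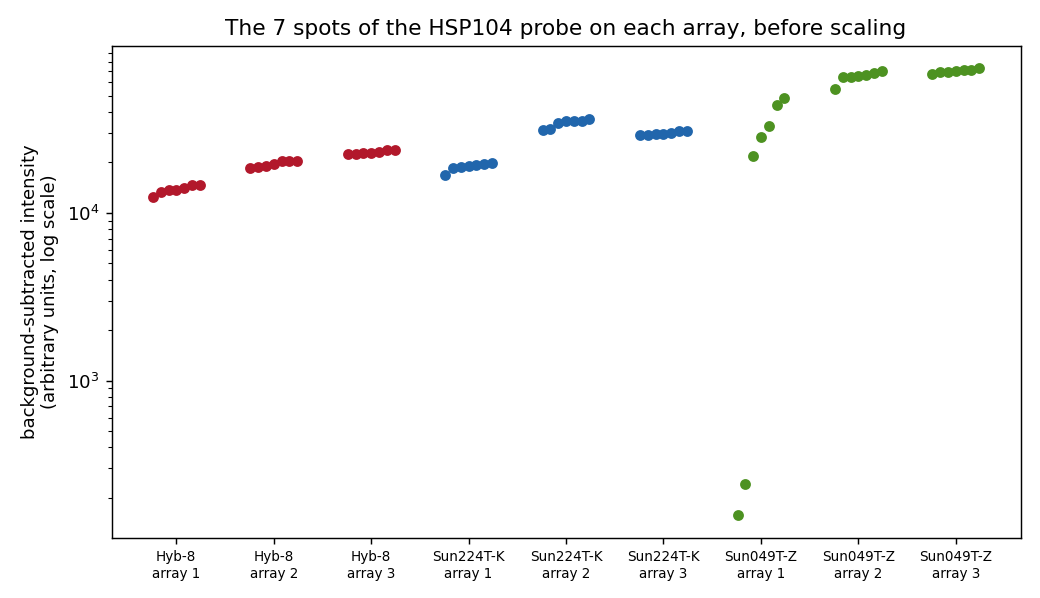
Background-subtracted intensity before scaling (log axis) of each of the 7 spots of the HSP104 probe on the 9 arrays, sorted within an array. On Sun049T-Z replicate 1, 2 spots lie at 157 and 241 and the other 5 above 21836, whereas the spots of every other array lie close together.

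HSP42 (YDR171W, chromosome IV), the small heat shock protein that gathers misfolded proteins into cytosolic deposits, gave even values within each strain. Its level was 3.84, 4.01 and 3.76 in Hyb-8 and 3.75, 3.66 and 3.79 in Sun224T-K, against 5.18, 5.07 and 5.05 in Sun049T-Z. All Sun049T-Z arrays lay above all others, whereas Hyb-8 and Sun224T-K overlapped. HSP42 was 2.35-fold lower in Hyb-8 than in Sun049T-Z (log2 fold change -1.23, standard error 0.10, adjusted p = 1.22e-05 from limma). The log2 fold change was -1.37 in Sun224T-K over Sun049T-Z (limma, adjusted p = 6.26e-06) and 0.14 in Hyb-8 over Sun224T-K (95% interval -0.10 to 0.37, adjusted p = 0.479).

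HSP26 (YBR072W, chromosome II), the other small heat shock protein with an alpha-crystallin domain, varied far more from array to array. The level was 5.23, 5.73 and 4.91 in Hyb-8 and 5.72, 4.55 and 5.59 in Sun224T-K, against 6.33, 5.85 and 5.74 in Sun049T-Z. The Sun049T-Z arrays again lay above all others, though Hyb-8 replicate 2 came close to Sun049T-Z replicate 3, and Sun224T-K replicate 2 was the lowest of all. Neither difference from Sun049T-Z passed: the log2 fold change was -0.68 in Hyb-8 (standard error 0.32, adjusted p = 0.101 from limma) and also -0.68 in Sun224T-K (adjusted p = 0.0959). Hyb-8 over Sun224T-K gave 0.01 with a 95% interval of -0.72 to 0.73 (adjusted p = 0.995). Without Sun224T-K replicate 2 the difference of Hyb-8 from Sun049T-Z was still -0.68 and its adjusted p 0.03 from limma.

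HSP12 (YFL014W, chromosome VI) encodes a small membrane-associated protein that is unfolded in solution. Levels of 4.96, 5.29 and 5.01 in Hyb-8 and 4.82, 4.12 and 4.85 in Sun224T-K stood against 5.65, 5.54 and 5.42 in Sun049T-Z. The strains did not overlap, and Hyb-8 lay between its parental strains. The only comparison past the adjusted p was Sun224T-K over Sun049T-Z, with a log2 fold change of -0.94 (adjusted p = 0.00262 from limma), short of 2-fold. It was called when Sun049T-Z replicate 3 (-1.001) or Sun224T-K replicate 1 (-1.05) or 3 (-1.07) was left out. Hyb-8 gave -0.45 over Sun049T-Z (adjusted p = 0.0733, and 0.00968 without Sun224T-K replicate 2) and 0.49 over Sun224T-K (adjusted p = 0.18).

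HSP31 (YDR533C, chromosome IV), a chaperone and glyoxalase of the DJ-1 family, was lower in Hyb-8 than in Sun049T-Z. It had levels of 1.501, 1.63 and 1.29 in Hyb-8 and 1.85, 1.17 and 1.67 in Sun224T-K, against 3.13, 2.80 and 2.78 in Sun049T-Z. Sun049T-Z stood apart, and the range of Sun224T-K held all Hyb-8 arrays. HSP31 was 2.70-fold lower in Hyb-8 (log2 fold change -1.43, standard error 0.19, adjusted p = 0.000179 from limma) and 2.54-fold lower in Sun224T-K (-1.34, adjusted p = 0.000255) than in Sun049T-Z. Hyb-8 over Sun224T-K gave -0.09 (95% interval -0.51 to 0.33, adjusted p = 0.827). On Sun049T-Z replicate 1 a spot at 33.2 had been marked as an outlier and left out, and with marked spots kept the log2 fold changes over Sun049T-Z were -1.05 in Hyb-8 and -0.96 in Sun224T-K, which was then not called.

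BTN2 (YGR142W, chromosome VII), whose protein collects misfolded proteins at inclusions, followed the same order as HSP42. The level was 3.33, 3.25 and 3.57 in Hyb-8 and 3.13, 3.08 and 3.22 in Sun224T-K, against 4.69, 4.63 and 4.55 in Sun049T-Z. Every Hyb-8 array lay above every Sun224T-K array, closely so for Hyb-8 replicate 2 and Sun224T-K replicate 3, and both strains lay far below Sun049T-Z. BTN2 was 2.36-fold lower in Hyb-8 than in Sun049T-Z (log2 fold change -1.24, standard error 0.11, adjusted p = 1.77e-05 from limma). Hyb-8 over Sun224T-K gave 0.24 (95% interval -0.01 to 0.49, adjusted p = 0.233), and Sun224T-K over Sun049T-Z -1.48 (adjusted p = 5.93e-06).

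HSP30 (YCR021C, chromosome III) alone among the 10 was called higher in Hyb-8. Hsp30 is not a chaperone but a plasma membrane protein known to restrain the proton pump Pma1 under stress. The level was 5.15, 5.07 and 4.88 in Hyb-8 and 5.25, 4.43 and 4.90 in Sun224T-K, against 2.28, 2.96 and 2.89 in Sun049T-Z. Every Sun049T-Z array lay below all arrays of the other strains, which overlapped each other. HSP30 was 5.00-fold higher in Hyb-8 (log2 fold change 2.32, standard error 0.23, adjusted p = 3.64e-05 from limma) and 4.44-fold higher in Sun224T-K (2.15, adjusted p = 5.46e-05) than in Sun049T-Z. Of all probes tested, 98.1% had a lower value than HSP30 in Hyb-8 over Sun049T-Z. Sun049T-Z replicate 1 had a spot SD of 1.04 for this probe, and without that array the log2 fold changes were 2.11 in Hyb-8 and 1.93 in Sun224T-K. Hyb-8 over Sun224T-K gave 0.17 (95% interval -0.35 to 0.69, adjusted p = 0.707).

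**Figure D3:**
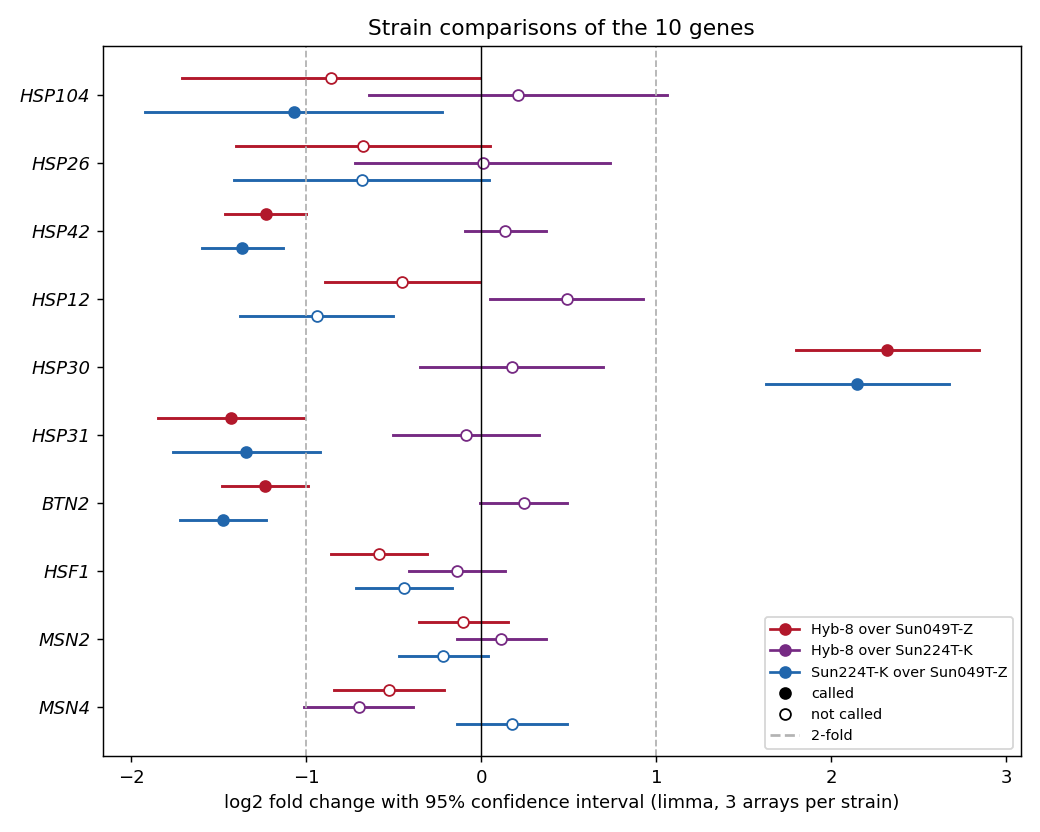
Log2 fold change (x axis) of the 10 genes in Hyb-8 over Sun049T-Z, Hyb-8 over Sun224T-K and Sun224T-K over Sun049T-Z, with the 95% confidence interval of limma as a line; filled points were called and dashed lines mark 2-fold. HSP30 stands at 2.32 and 2.15 over Sun049T-Z, HSP42, HSP31 and BTN2 between -1.48 and -1.23, and no gene is called between Hyb-8 and Sun224T-K.

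The regulators were transcribed at more even levels, and none was called. HSF1 (YGL073W, chromosome VII) encodes the essential heat shock factor. Its level was -0.69, -0.79 and -0.74 in Hyb-8 and -0.68, -0.72 and -0.40 in Sun224T-K, against 0.01, -0.28 and -0.20 in Sun049T-Z. The Sun049T-Z arrays lay above all others, and Sun224T-K replicate 3 came closest to them. HSF1 was lower than in Sun049T-Z in Hyb-8, with a log2 fold change of -0.58 (adjusted p = 0.00276 from limma), and in Sun224T-K, with -0.44 (adjusted p = 0.0114). Hyb-8 over Sun224T-K gave -0.14 (95% interval -0.41 to 0.13, adjusted p = 0.539).

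MSN2 (YMR037C, chromosome XIII), which encodes a zinc finger factor of the general stress response, did not pass in any comparison. It had levels of -0.41, -0.25 and -0.49 in Hyb-8 and -0.66, -0.36 and -0.46 in Sun224T-K, against -0.23, -0.29 and -0.30 in Sun049T-Z. Hyb-8 overlapped both parental strains. Hyb-8 over Sun049T-Z gave a log2 fold change of -0.10 (95% interval -0.36 to 0.15), Hyb-8 over Sun224T-K 0.11 (-0.14 to 0.37), and Sun224T-K over Sun049T-Z, whose arrays did not overlap, -0.22 (-0.47 to 0.04).

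MSN4 (YKL062W, chromosome XI), the paralog of MSN2, had all Hyb-8 arrays below all arrays of both parental strains. The share of all probes ordered this way was not counted. The level was -0.25, -0.47 and -0.39 in Hyb-8, against 0.21, 0.59 and 0.20 in Sun224T-K and 0.27, 0.23 and -0.03 in Sun049T-Z. MSN4 was 1.63-fold lower in Hyb-8 than in Sun224T-K (log2 fold change -0.70, standard error 0.14, adjusted p = 0.0238 from limma), a change with only 1.33% of all probes below it, and 1.44-fold lower than in Sun049T-Z (-0.53, adjusted p = 0.00963). The parental strains overlapped, with a log2 fold change of 0.17 in Sun224T-K over Sun049T-Z (adjusted p = 0.306 from limma). The adjusted p against Sun224T-K missed the threshold when Sun224T-K replicate 3 was left out (0.0603), and likewise for replicate 2 (0.0808) and replicate 3 (0.0945) of Hyb-8, while the log2 fold change stayed between -0.77 and -0.57 whichever array was left out. Within slides 2 and 3 it was -0.65 and -0.59. With the slide as a fixed block neither the difference from Sun224T-K (-0.62, adjusted p = 0.0833 from limma) nor that from Sun049T-Z (-0.42, adjusted p = 0.0543) passed. That fit set aside Hyb-8 replicate 2 and Sun049T-Z replicate 1, each the only array on its slide.

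Hyb-8 was also set against the middle of its parental strains, the mean of both parental means on the log2 scale. HSP30 lay above it by 1.25, and HSP42 (-0.55), HSP31 (-0.76), BTN2 (-0.50), HSF1 (-0.36) and MSN4 (-0.61) lay below it. These 6 of 10 genes passed the adjusted p, beside 35.1% of all probes. HSP12 (0.02) and MSN2 (0.0049) had values next to the middle, HSP26 gave -0.34 (adjusted p = 0.38 from limma), and HSP104 gave -0.33 (adjusted p = 0.472). With the median of the spots 7 of the 10 genes passed the adjusted p, and 5 to 7 did with 1 array left out. For these settings the share of all probes was not counted. The Hyb-8 mean lay between the parental means for HSP104, HSP26, HSP42, HSP12, BTN2 and MSN2, above both for HSP30, and below both for HSP31, HSF1 and MSN4. Of those outside the parental range, HSP30, HSP31 and HSF1 did not pass the test against Sun224T-K, and their sign turned under another scaling (quantile for HSP30, ACT1 for HSP31 and HSF1).

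Within a strain the genes differed in how much their arrays spread. The SD over 3 arrays ranged from 0.04 for MSN2 in Sun049T-Z to 0.97 for HSP104 in Sun049T-Z, with a median of 0.16. HSP26 had SDs of 0.41 in Hyb-8, 0.64 in Sun224T-K and 0.32 in Sun049T-Z, against 0.07 to 0.13 for HSP42. Over the 9 arrays, deviations from the strain mean went together for HSP26 and HSP31 (r = 0.974), HSP26 and HSP12 (r = 0.936), HSP12 and HSP31 (r = 0.882) and HSP26 and HSP42 (r = 0.866). These pairs had the highest correlations among the 10 genes and were picked after the values were seen. All other pairs were lower, many of them negative. The correlations are a description over 9 arrays, which share the scaling of each array. BTN2 showed no such relation to HSP26 (r = -0.0779) and MSN4 an opposite one to HSP12 (r = -0.661). Within Sun224T-K the lowest value was on replicate 2 for 8 of the 10 genes, all except MSN2 and MSN4, and the intensity at the 75th percentile was 4830 on that array, the highest of all. Its part in these values was not tested, and the share of all probes that were lowest there was not counted. Without this array HSP26 was at -0.36 in Hyb-8 over Sun224T-K (adjusted p = 0.505 from limma) and HSP12 at 0.25.

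**Figure D4:**
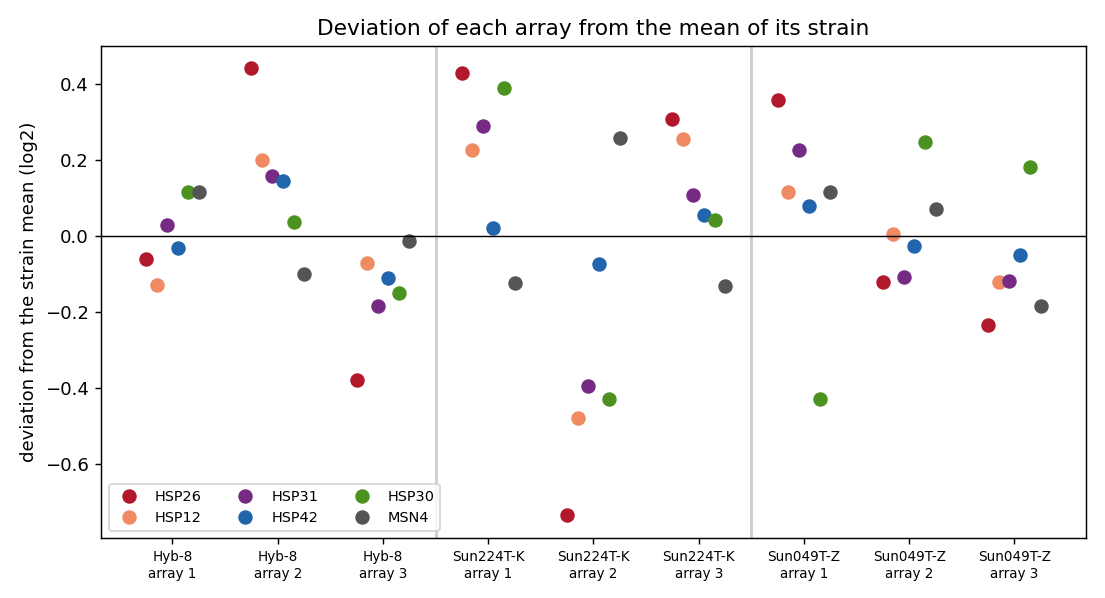
Deviation (log2) of each array from the mean of its strain for HSP26, HSP12, HSP31, HSP42, HSP30 and MSN4, with the arrays of Hyb-8, Sun224T-K and Sun049T-Z from left to right. On Sun224T-K replicate 2 every plotted gene except MSN4 lies below the mean of its strain, and MSN4 lies above it.

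Most other genes that Hsf1 is known to drive were lower in Hyb-8 than in Sun049T-Z. Of 23 such genes, most of them for chaperones and co-chaperones, 16 were called lower and 0 higher, beside 9.1% and 9.37% of all probes, and 20 passed the adjusted p, all lower, beside 56%. Their median log2 fold change was -1.13, against 0.03 over all probes. HSP82, the inducible Hsp90, was at 3.09, 3.16 and 3.21 in Hyb-8 and 3.10, 3.01 and 3.09 in Sun224T-K, against 5.04, 4.93 and 4.94 in Sun049T-Z, or 3.52-fold lower in Hyb-8 than in Sun049T-Z (limma, adjusted p = 7.07e-07). The Hsp70 gene SSA3 was 3.90-fold lower, the coactivator gene MBF1 3.13-fold lower and AHA1, an activator of Hsp90, 3.09-fold lower. The Hsp40 gene SIS1, the Hsp90 cochaperone gene SBA1 and the polyubiquitin gene UBI4, named after their values were seen, did not pass, and UBI4 had the highest value (0.23, adjusted p = 0.435). In Sun049T-Z the SD was 0.94 for SIS1 and 0.57 for UBI4, against 0.08 for SBA1. With the median of the spots, or without Sun049T-Z replicate 1, 21 of the 23 passed, all lower, though the share of all probes was not counted there. In Sun224T-K over the same Sun049T-Z arrays 15 were called lower and 0 higher, beside 10.7% and 9.42% of all probes, with a median of -1.18. In Hyb-8 over Sun224T-K 0 of the 23 were called higher or lower by limma, beside 0.858% and 0.387% of all probes. There 0 passed the adjusted p, beside 5.48%, with a median of 0.06 and values between -0.36 and 0.30.

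Genes known as targets of Msn2 and Msn4 were more mixed. Of 27 of them, 12 were called lower and 0 higher in Hyb-8 over Sun049T-Z, beside 9.1% and 9.37% of all probes. By the adjusted p alone 17 were lower and 2 higher, beside 56% of all probes in either direction, and their median log2 fold change was -0.78. TFS1, which encodes an inhibitor of carboxypeptidase Y, was 8.64-fold lower (limma, adjusted p = 3.11e-06), the cell wall protein gene SPI1 3.75-fold lower, SOL4 of the pentose phosphate pathway 3.57-fold lower and the aldose reductase gene GRE3 3.24-fold lower. The genes past the adjusted p in the other direction, DDR2 (log2 fold change 0.96) and GND2 (0.92), fall outside the naming rule and were picked after their values were seen. In Sun224T-K over Sun049T-Z 12 were called lower and 0 higher, beside 10.7% and 9.42% of all probes, with a median of -0.94. Between Hyb-8 and Sun224T-K 1 of the 27 was called higher and 0 lower in Hyb-8, beside 0.858% and 0.387% of all probes. It was TKL2, a transketolase gene, 2.21-fold higher in Hyb-8 (adjusted p = 0.0337 from limma), at 0.79, 1.07 and 0.65 in Hyb-8, against -0.08, -0.97 and 0.13 in Sun224T-K. The lowest of these was again Sun224T-K replicate 2, and no gene of the list was called higher without that array, Sun049T-Z replicate 2 or 3, or any one Hyb-8 array. The catalase gene CTT1, also picked after its values were seen, gave -0.95 in Hyb-8 over Sun224T-K and passed the adjusted p (0.028). The median of the 27 genes in that comparison was 0.29, against 0.01 over all probes.

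**Figure D5:**
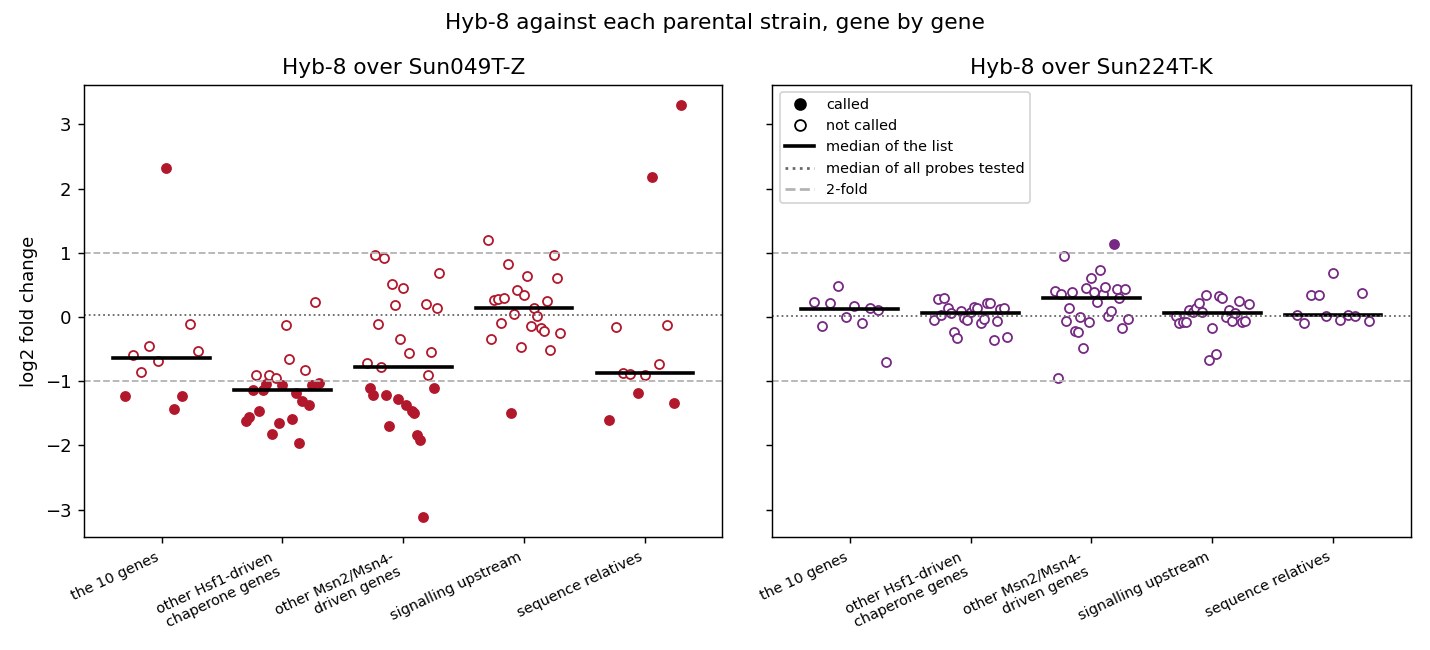
Log2 fold change (y axis) of each gene in Hyb-8 over Sun049T-Z (left) and over Sun224T-K (right) for the 10 genes and the lists of other Hsf1-driven genes, other Msn2/Msn4-driven genes, upstream signalling genes and sequence relatives; filled points were called, black lines are list medians. Over Sun049T-Z the medians of the Hsf1-driven and Msn2/Msn4-driven lists stand at -1.13 and -0.78, and over Sun224T-K at 0.06 and 0.29.

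The pathways upstream of these factors were also looked at. Of 23 genes of the Ras, protein kinase A, TOR and Snf1 pathways and of Msn2 transport, 1 was called lower and 0 higher in Hyb-8 over Sun049T-Z, beside 9.1% and 9.37% of all probes. By the adjusted p alone in limma 4 were higher and 3 lower, beside 56% of all probes in either direction. This count depended on Sun049T-Z replicate 1: without that array 8 were higher and 5 lower, and with the median of the spots 7 and 5. The share of all probes past the adjusted p was not counted in these settings. The gene called was IRA2, an inhibitor of Ras, which was 2.81-fold lower in Hyb-8 and 3.26-fold lower in Sun224T-K than in Sun049T-Z (limma, adjusted p = 9.9e-05 and 4.18e-05). TPK3, a catalytic subunit of protein kinase A, and PSR2, a phosphatase of the Msn2 pathway, were 2.06-fold and 2.32-fold higher in Sun224T-K than in Sun049T-Z. The median of the 23 genes was 0.14 in Hyb-8 over Sun049T-Z, but 0.0024 with the median of the spots and -0.05 without Sun049T-Z replicate 1. In Hyb-8 over Sun224T-K 0 of them were called higher or lower by limma, beside 0.858% and 0.387% of all probes. There 0 passed the adjusted p, beside 5.48%, and 2 did, both lower, with the median of the spots.

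The closest sequence relatives of the 10 genes were looked at for the same pattern. HSP78, the mitochondrial counterpart of HSP104, was 2.27-fold lower in Hyb-8 (adjusted p = 9.74e-06 from limma) and 2.29-fold lower in Sun224T-K than in Sun049T-Z. CUR1, the paralog of BTN2, had levels of -0.03, -0.39 and -0.04 in Hyb-8 and -0.16, -0.23 and -0.16 in Sun224T-K, against 1.52, 1.54 and 1.31 in Sun049T-Z, which is 3.05-fold lower in Hyb-8 than in Sun049T-Z (adjusted p = 7.41e-06). Of the relatives of HSP31, which are nearly identical to one another, SNO4 was 2.53-fold lower in Hyb-8, whereas HSP32 and HSP33 had log2 fold changes of -0.87 and -0.88 and stayed short of 2-fold. The level of HSP33 ranged from -1.41 to -0.26 over the Sun049T-Z arrays. Probes of HSP31, HSP32, HSP33 and SNO4 may bind each other's transcripts, which was not tested, so their values are uncertain.

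The relatives of HSP30 shared its direction. YRO2, which encodes a plasma membrane protein of the same family, had levels of 2.85, 2.63 and 2.79 in Hyb-8 and 2.92, 2.58 and 2.94 in Sun224T-K, against -0.50, -0.63 and -0.49 in Sun049T-Z. It was 9.81-fold higher in Hyb-8 and 10.2-fold higher in Sun224T-K than in Sun049T-Z (limma, adjusted p = 2.48e-07 and 2.68e-07). MRH1, the third gene of this family, was 4.53-fold and 4.68-fold higher in the same comparisons. No relative of HSF1 was called in Hyb-8: SKN7 (-0.12) and HMS2 (-0.15) did not pass over Sun049T-Z, SFL1 was 1.66-fold lower and MGA1 1.88-fold lower. In Hyb-8 over Sun049T-Z 2 of the 11 relatives were called higher and 3 lower, beside 9.37% and 9.1% of all probes. In Sun224T-K over Sun049T-Z 2 were called higher and 6 lower, beside 9.42% and 10.7%. In Hyb-8 over Sun224T-K 0 were called higher or lower, beside 0.858% and 0.387%, and 0 passed the adjusted p by limma, beside 5.48%. The 3 lower became 4 with the median of the spots, 4 without Sun049T-Z replicate 1 and 5 without Hyb-8 replicate 1, beside 562, 539 and 536 of all 5947 probes.

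The genes whose levels followed HSP104 most closely depended on the spots of Sun049T-Z replicate 1. Over the 9 arrays the highest Pearson correlations, given as a description, were with BUD7 (r = 0.990), OXR1 (0.987), SIS1 (0.986), NCR1 (0.969) and DCS2 (0.968). SIS1 had a range of 2.25 to 3.90 in Sun049T-Z, nearly as wide as that of HSP104. With the median of the spots, chosen after this spread was seen, the highest were the guanine deaminase gene GUD1 (r = 0.999), MAL33 (0.997), FIT3 (0.997), the Hsp40 gene APJ1 (0.997) and the proteasome gene RPT2 (0.996), and none of the first 5 was among them. On these values HSP104 went with HSP42 (r = 0.996), BTN2 (0.989) and HSP31 (0.954), less with HSP26 (0.665), and in the opposite direction to HSP30 (-0.959). The 9 arrays behind these correlations come from only 3 strains and share the scaling of each array.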

How the data were processed

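RNA from 3 strains was hybridised to 1-colour Agilent arrays. Per the labels Agilent Feature Extraction 10.1.1.1 read the scans, and the authors deposited its background-subtracted intensity of every spot. The authors also deposited log2 values, processed in GeneSpring GX. By comparison with the scanner values that table was shifted per array and centred on each probe's median, and its medians per array were 0 except 0.08 on Sun049T-Z replicate 1. It served as an alternative. Here, without control spots and marked outlier spots, log2 intensity minus the 75th percentile of the array was averaged over up to 7 spots of a probe, and a probe was tested where all 3 arrays of some strain had it well above background (5947 of 6256). Names came from the files' systematic names, matched for 5756 probes to assembly R64. Strains were compared in 1 fit over 9 arrays in limma 3.58.1 (lmFit, eBayes, R 4.3.3) with Benjamini-Hochberg adjustment, and the fit was tested on simulated data. The number of arrays limits the precision. The members, lists, naming rule and alternatives were chosen with earlier results of these data known. The rule took all members, up to 4 called genes per list with the largest change, any sequence relative, and the 5 genes most like HSP104. Alternatives covered background correction, normalization, probe and spot filters, the test, its thresholds, blocks for replicate number and slide, and each array left out. No sequence or motif was used here, and qRT-PCR was not analysed here.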

Additional observations from a re-analysis of the deposited data

How the results depend on the processing

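Among the counts of members called, that of members lower in Hyb-8 than in Sun224T-K was 1 (MSN4) at 1.5-fold, beside 90 of all 5947 probes. The others stayed within 1.5 times their value. Leaving out 1 array at a time gave 3 to 4 members lower in Hyb-8 than in Sun049T-Z, beside 533 to 576 of all 5947 probes. In Sun224T-K 3 to 4 were lower than in Sun049T-Z, beside 559 to 723.

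Small differences between Hyb-8 and Sun224T-K changed sign. For HSP26 the log2 fold change was -0.031 with normexp background, -0.19 with quantile normalization, -0.52 with array weights, -0.22 and -0.028 with slide as a fixed and as a random block, and between -0.36 and 0.22 over the arrays left out. HSP30 gave -0.0070 with quantile normalization and -0.043 to 0.37 over the arrays left out, and HSP31 gave 0.073 scaled to ACT1 and -0.29 to 0.056 over the arrays left out. Scaling to ACT1 also turned HSF1 to 0.020 and, in Sun224T-K over Sun049T-Z, MSN4 to -0.15, and in Hyb-8 over Sun224T-K MSN4 (-0.54, adjusted p = 0.0908, limma) no longer passed, which left 0 members. That scaling moved the median of all probes by -0.13 in Hyb-8 over Sun049T-Z, 0.17 in Hyb-8 over Sun224T-K and -0.32 in Sun224T-K over Sun049T-Z, and the share of calls that were higher to 37%, 84.3% and 23.9%, from 50.7%, 68.9% and 46.9%. With array weights 5 members passed the adjusted p in Hyb-8 over Sun224T-K, namely HSP26, HSP31, BTN2, HSF1 and MSN4. For array weights and ACT1 scaling the share of all probes past the adjusted p was not counted. HSP104 was called in Hyb-8 over Sun049T-Z with array weights (-1.34) and the slide as a fixed block (-1.44) as well. The fixed block set aside Sun049T-Z replicate 1 and Hyb-8 replicate 2, each the only array on its slide, so it largely repeated the fit without Sun049T-Z replicate 1. The Sun224T-K call of HSP104 was lost with normexp background (-0.95), with each pair of strains fitted alone (adjusted p = 0.0802, limma) and at an adjusted p under 0.01. HSP12 was called in Sun224T-K over Sun049T-Z with a median shift (-1.01), ACT1 scaling (-1.26) and at 1.5-fold, as was HSP26 with ACT1 scaling (-1.006). HSP26 passed the adjusted p in Hyb-8 over Sun049T-Z with quantile normalization (-0.96), ACT1 scaling (-0.84), array weights (-0.77) and pairs fitted alone (-0.68). Of the relatives 6 were called lower in Hyb-8 over Sun049T-Z with ACT1 scaling and 7 at 1.5-fold, against 3. Beside them 713, 1134 and 541 of all 5947 probes were called lower. TPK3 and PSR2 were the 2 signalling genes called higher in Sun224T-K, against 0 with ACT1 scaling, beside 560 and 336 of all 5947 probes. With 1 array left out, up to 1 Msn2/Msn4-driven and 1 signalling gene were called higher in Hyb-8 over Sun049T-Z, beside 554 to 601 of all 5947 probes. In Sun224T-K over Sun049T-Z 1 or 2 signalling genes were, beside 530 to 597. The cause was not tested.

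Between strains, deviations of same-numbered arrays correlated at -0.25 to 0.15, within -0.365 to 0.356 for others, so pairing by number stays undecided. With the replicate number as a block, 3 members were called lower and 1 higher in Hyb-8 over Sun049T-Z, as without it. Beside them 545 and 558 of all 5947 probes were. MSN4 in Hyb-8 over Sun224T-K then had an adjusted p of 0.0505 by limma.

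Without Sun049T-Z replicate 1, or with the median of the spots, 17 of the 23 Hsf1-driven and 13 of the 27 Msn2/Msn4-driven genes were called lower in Hyb-8 over Sun049T-Z, against 16 and 12, beside 539 and 562 of all 5947 probes in these settings, both chosen after seeing the data. Signal over background did not limit the members, which were bright on every array.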
